A study of Mus musculus with 20 samples.

Results

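The acyl-CoA thioesterases and acyltransferases described here are 10 genes, Acot1, Acot2, Acot3, Acot4, Acot8, Acot11, Acot12, Acot13, Acnat1 and Acnat2, of 19938 genes with a named probe set in a liver microarray comparison of 4 mouse strains. They were chosen by gene symbol in the platform annotation, and each is read by 1 probe set. The animals were male, 6 weeks old, and had been fed a high-fat diet with 45 kcal% fat since weaning at 21 days. The groups were NZO/Hl (NZO, New Zealand Obese, an inbred model of obesity), C3H, 129P2/OlaHsd (129P2) and C57/Bl6 (B6), with 5 animals and 1 whole-liver array per animal in each. Strain was the only labelled difference, and although the series is titled for a knockdown of Nudt19, none of these arrays is labelled as one. The labels do not say whether litters, cages or array runs differed between strains, so these cannot be told apart from strain.

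Acyl-CoA thioesterases cut a fatty acyl-CoA into a free fatty acid and coenzyme A, and so set how much activated fatty acid a compartment holds. The type I enzymes come from a gene cluster and sit in different compartments: Acot1 in the cytosol, Acot2 in mitochondria, and Acot3 and Acot4 in peroxisomes. The type II enzymes Acot8, Acot11, Acot12 and Acot13 are unrelated to them in sequence. Acnat1 and Acnat2 resemble the type I enzymes and the bile acid conjugating enzyme Baat; mouse Acnat1 is a peroxisomal enzyme that joins fatty acids to taurine. In liver, several type I genes are known targets of PPAR alpha, the nuclear receptor that is activated by fatty acids in fasting.

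Values are log2 expression as deposited, so a difference of 1 is a doubling of signal, and levels of different genes are not compared because each probe set binds with its own strength. A value under the 40th percentile of all probe sets on its own array is called dim. Testing required 5 or more arrays that were not dim, which held for 14190 genes and for 9 of the 10 members. Acot3 was set aside because 1 array was above the percentile, and Acot1 passed with 8 arrays. Differences are given as the first strain minus the second, ± SE, and a call is an adjusted p under 0.05 in limma with Benjamini-Hochberg adjustment over all tested genes. On the 20 arrays the interquartile range of all probe sets was 2.17 to 2.50 log2 units. By strain it was 2.20 to 2.50 in NZO, 2.17 to 2.40 in C3H, 2.19 to 2.37 in 129P2 and 2.34 to 2.48 in B6. The B6 arrays thus lay toward the wide end, and array spread is not independent of strain. The correlation between arrays was 0.9660 to 0.9894 over 190 pairs, and 0 of 9 hepatocyte markers were called in any comparison. B6 replicate 3 stood apart from the other B6 animals for Acot1 to Acot4, and the members' calls and the list counts against B6 are also given without it where they change.

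The genes lie in groups on the mouse genome. In the RefSeq annotation Acot2, Acot1, Acot4 and Acot3 follow each other on chromosome 12, with Acot5 and Acot6 next to them. Acnat2 and Acnat1 lie side by side on chromosome 4, which also holds Acot11, while Acot8 is on chromosome 2 and Acot12 and Acot13 are on chromosome 13. The promoters of the 2 clusters are shown because their genes share a neighbourhood. Each runs from 250 bases before to 50 bases after a transcription start of the C57BL/6J reference, from RefSeq on build GRCm38.p6, and of several starts of Acnat2 and Acot3 1 is shown. Capitals mark AGGTCA (the recognition motif of many nuclear receptors), CCAAT and TTNCNNGAA (a loose STAT-like pattern), on either strand.
Acot2 (chr12:83987611-83987910, plus strand): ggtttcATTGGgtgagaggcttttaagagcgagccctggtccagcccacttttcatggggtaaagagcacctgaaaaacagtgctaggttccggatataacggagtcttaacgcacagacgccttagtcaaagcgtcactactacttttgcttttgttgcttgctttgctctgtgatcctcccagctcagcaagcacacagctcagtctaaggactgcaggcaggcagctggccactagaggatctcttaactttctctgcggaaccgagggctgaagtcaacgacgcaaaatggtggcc
Acot1 (chr12:84009252-84009551, plus strand): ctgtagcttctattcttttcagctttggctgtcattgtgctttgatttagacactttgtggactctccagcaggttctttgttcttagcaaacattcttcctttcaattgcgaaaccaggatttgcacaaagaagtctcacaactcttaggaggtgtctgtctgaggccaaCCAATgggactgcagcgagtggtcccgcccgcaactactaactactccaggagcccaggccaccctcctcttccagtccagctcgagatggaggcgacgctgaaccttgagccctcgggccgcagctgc
Acot4 (chr12:84038129-84038428, plus strand): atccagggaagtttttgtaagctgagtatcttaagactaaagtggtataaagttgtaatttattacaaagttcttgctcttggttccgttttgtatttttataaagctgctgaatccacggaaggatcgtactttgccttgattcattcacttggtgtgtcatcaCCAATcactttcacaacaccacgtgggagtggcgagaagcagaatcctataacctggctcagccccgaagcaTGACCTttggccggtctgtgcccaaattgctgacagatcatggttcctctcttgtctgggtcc
Acot3 (chr12:84051894-84052193, plus strand): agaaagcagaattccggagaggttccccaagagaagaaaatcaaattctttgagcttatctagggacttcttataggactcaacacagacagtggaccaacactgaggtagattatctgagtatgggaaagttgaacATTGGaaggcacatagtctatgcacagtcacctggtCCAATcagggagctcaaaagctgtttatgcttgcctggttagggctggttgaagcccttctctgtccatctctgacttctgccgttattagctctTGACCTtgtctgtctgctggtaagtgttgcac
Acnat2 (chr4:49408102-49408401, minus strand): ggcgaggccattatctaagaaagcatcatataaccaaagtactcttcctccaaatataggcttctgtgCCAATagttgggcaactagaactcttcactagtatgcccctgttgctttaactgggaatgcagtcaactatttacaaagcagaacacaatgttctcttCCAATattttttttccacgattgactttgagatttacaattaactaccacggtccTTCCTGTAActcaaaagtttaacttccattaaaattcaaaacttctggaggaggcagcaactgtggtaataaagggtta
Acnat1 (chr4:49451060-49451359, minus strand): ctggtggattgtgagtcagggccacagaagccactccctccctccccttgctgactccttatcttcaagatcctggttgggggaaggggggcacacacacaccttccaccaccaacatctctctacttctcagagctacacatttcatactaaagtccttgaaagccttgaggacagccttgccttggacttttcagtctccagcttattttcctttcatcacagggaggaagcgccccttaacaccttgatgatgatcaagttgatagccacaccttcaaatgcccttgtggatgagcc

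A CCAAT match was present in each type I promoter shown and in the Acnat2 promoter, but the Acnat1 window held none of these letters. In the Acnat2 window CCAAT stood 84 and 182 bases before the start. TTNCNNGAA stood 29 bases before it, on the opposite strand, as TTCCTGTAA. AGGTCA stood 13 bases before the start of Acot4 and 18 bases after that of Acot3, each time on the opposite strand, as TGACCT. Over all members, 12 promoters of 9 genes were found in the table, and they were counted by gene because windows of 1 gene can overlap, as those of Acot3 do. CCAAT was in a window of 7 of the 9 genes, against 41.1% of 27025 mouse genes. AGGTCA was in windows of 3 (Acot3, Acot4 and Acot12), against 18.1%, and TTNCNNGAA in windows of 2 (Acot11 and Acnat2), against 14.8%. The fuller pattern of PPAR sites, a direct repeat of AGGNCA with 1 free base between the copies, was in 0 of the 9 and in 0.451% of all genes. These are matches of letters, not sites shown to be bound, and another 12 motifs were searched and are not shown.

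Acnat2 had the largest strain differences among the 9 tested members, and it was higher in NZO than in each other strain. Its log2 values were 8.83, 9.89, 9.37, 8.60 and 8.87 in NZO livers, 6.69, 7.49, 8.06, 7.89 and 7.37 in C3H livers, 7.65, 6.96, 7.59, 7.81 and 6.73 in 129P2 livers, and 7.35, 6.36, 7.27, 6.96 and 7.51 in B6 livers. Every NZO animal lay above every animal of the other strains, which overlapped with each other. The NZO mean was 4.06-fold that of B6 (95% interval 2.76 to 5.97; log2 difference 2.02 ± 0.27, limma adjusted p = 1.75e-05). It was 3.05-fold that of C3H (2.07 to 4.49; adjusted p = 3.05e-04 by limma) and 3.39-fold that of 129P2 (2.31 to 4.99; adjusted p = 9.61e-05 by limma). Being higher in NZO than in each other strain was a pattern of 0.973% of tested genes, and Acnat2 was the only member with it. C3H, 129P2 and B6 had means of 7.50, 7.35 and 7.09, and none of their differences was called; the widest was 0.41 for C3H minus B6, with a 95% interval of -0.14 to 0.97.

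Acnat1, beside it on chromosome 4, had a smaller difference between NZO and B6. Its log2 values were 11.44, 11.63, 11.72, 11.38 and 11.52 in NZO livers, 10.96, 11.04, 11.26, 11.48 and 11.23 in C3H livers, 11.48, 10.77, 11.44, 11.62 and 11.35 in 129P2 livers, and 11.21, 10.86, 10.92, 10.95 and 11.28 in B6 livers. All NZO values lay above all B6 values, while NZO overlapped with C3H and with 129P2. Acnat1 was 1.41-fold higher in NZO than in B6 (95% interval 1.16 to 1.70; log2 difference 0.49 ± 0.13, limma adjusted p = 0.0178). That call was lost without NZO replicate 3 (0.45, limma adjusted p = 0.0557) or B6 replicate 4 (0.47, limma adjusted p = 0.0502). For NZO minus C3H the difference was 0.34 ± 0.13 (limma adjusted p = 0.156), and for NZO minus 129P2 it was 0.21 ± 0.13 (limma adjusted p = 0.424). The 2 genes also varied together within strains: the correlation of their deviations from the strain means was 0.69 over 20 arrays, which share animals and normalization. The sequences of Acnat1 and Acnat2 are related, and whether a probe set of either binds RNA of the other, or a strain variant lies under the probes, was not tested.

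**Figure D1:**
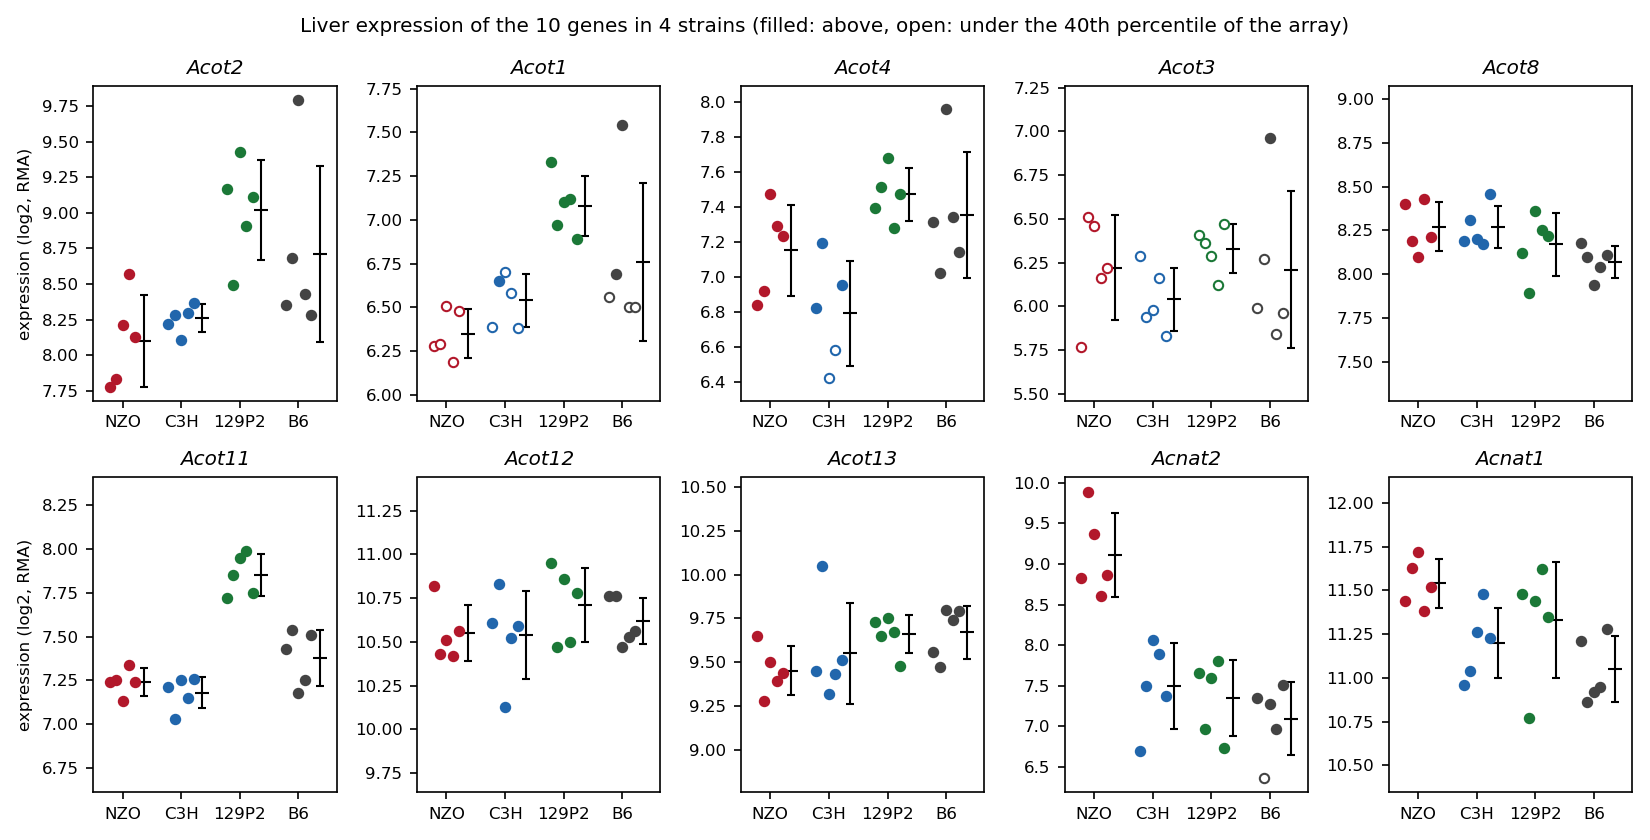
Log2 expression (RMA) of each of the 10 genes in every animal by strain, with open points for values under the array's 40th percentile, and the mean with SD (n = 5) beside the points; each panel has its own axis. The 5 NZO animals lie above all others for Acnat2, the 5 129P2 animals lie above all others for Acot11, and B6 replicate 3 is the high B6 point for Acot1 to Acot4.

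The type I thioesterases Acot2 and Acot1 were lower in NZO and in C3H livers than in 129P2 livers. For Acot2, the mitochondrial enzyme, log2 values were 7.78, 7.83, 8.21, 8.57 and 8.13 in NZO, 8.22, 8.28, 8.11, 8.30 and 8.37 in C3H, 9.17, 8.49, 9.43, 8.91 and 9.11 in 129P2, and 8.35, 8.68, 9.79, 8.43 and 8.28 in B6. The C3H values all lay under the 129P2 values, NZO overlapped with 129P2 through NZO replicate 4, and B6 spanned most of the range because of replicate 3. The difference was -0.92 ± 0.22 for NZO minus 129P2 (limma adjusted p = 0.00708) and -0.77 ± 0.22 for C3H minus 129P2 (limma adjusted p = 0.0398). The C3H call was lost on leaving out any of 9 of the 10 animals of these strains singly (limma adjusted p = 0.0583 to 0.116). For NZO minus B6 the difference was -0.60 ± 0.22 and was not called (limma adjusted p = 0.0808), and without B6 replicate 3 it was -0.33 (limma adjusted p = 0.222).

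Acot1, the cytosolic enzyme that fasting induces in mouse liver, was dim on all NZO arrays. Its log2 values were 6.28, 6.29, 6.51, 6.19 and 6.48 in NZO, 6.39, 6.65, 6.70, 6.58 and 6.38 in C3H, 7.33, 6.97, 7.10, 7.12 and 6.89 in 129P2, and 6.56, 6.69, 7.54, 6.50 and 6.50 in B6. Every 129P2 animal was above its array's percentile and above every NZO and C3H animal, whereas 4 of 5 C3H and 3 of 5 B6 arrays were dim. Acot1 therefore passed the filter mainly through 129P2. The fitted difference was -0.73 ± 0.15 for NZO minus 129P2 (limma adjusted p = 0.00172). As NZO was dim throughout, only a bound on the level holds, and 129P2 was at least 1.37-fold higher than NZO. For C3H minus 129P2 the difference was -0.54 ± 0.15 (limma adjusted p = 0.0308), and it was not called with dim values raised to the percentile (-0.44, limma adjusted p = 0.0568) or without any of 6 animals singly (limma adjusted p = 0.056 to 0.0887).

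Acot4, a peroxisomal enzyme that in mouse acts on dicarboxylyl-CoAs such as succinyl-CoA, had its lowest mean in C3H. Its log2 values were 6.84, 6.92, 7.47, 7.29 and 7.23 in NZO, 6.82, 7.19, 6.42, 6.58 and 6.95 in C3H, 7.39, 7.51, 7.68, 7.28 and 7.47 in 129P2, and 7.31, 7.02, 7.96, 7.34 and 7.14 in B6. All C3H values lay under all 129P2 values, and C3H overlapped with B6 and with NZO. The difference was -0.68 ± 0.16 for C3H minus 129P2 (limma adjusted p = 0.00942) and -0.56 ± 0.16 for C3H minus B6 (limma adjusted p = 0.0271). The call against B6 was lost without B6 replicate 3 (-0.41, limma adjusted p = 0.0859), B6 replicate 4 (-0.57, adjusted p = 0.0562 by limma), C3H replicate 3 (-0.47, limma adjusted p = 0.0956) or C3H replicate 4 (-0.51, limma adjusted p = 0.0778), with only C3H and B6 in the fit (limma adjusted p = 0.063), and when the spread of each array was a covariate (-0.43, adjusted p = 0.18 in limma). Acot3, the peroxisomal long-chain enzyme, was dim on 19 of the 20 arrays. Its values ran between 5.77 and 6.51 in NZO, 5.83 and 6.29 in C3H, 6.12 and 6.47 in 129P2, and 5.84 and 6.96 in B6, and the value above the percentile was that of B6 replicate 3.

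That animal was the highest of the 5 B6 animals for Acot1, Acot2, Acot3 and Acot4. It read 7.54 for Acot1, 9.79 for Acot2, 6.96 for Acot3 and 7.96 for Acot4, against 6.56, 8.44, 6.02 and 7.20 for the mean of the other 4 B6 animals. For all 4 genes it lay above the highest of the others (6.69, 8.68, 6.27 and 7.34). For the rest of the family the gaps were small: Acot13 was 0.16 above the mean of the others, where this animal was the highest B6 animal by 9.80 against 9.79, Acnat2 was 0.23 above it, and Acot8, Acot11, Acot12 and Acnat1 were below it. Of 34 tested PPAR alpha target genes this animal was the highest B6 animal for 18, against 24% of all tested genes. It was at least 0.5 log2 units above the mean of the other B6 animals for 9 of the 34, against 2.79% of all tested genes. The gaps were 4.01 for Cyp4a14 and 2.10 for Cyp4a10, both fatty acid omega-hydroxylases, 2.86 for Fgf21, a hormone made by fasting liver, and 1.30 for Cidec, a lipid droplet protein. Each other B6 animal had between 0 and 1 gene of the list that far above. The gaps describe 1 animal and have no test, and its feeding state at collection is not given in the labels.

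**Figure D2:**
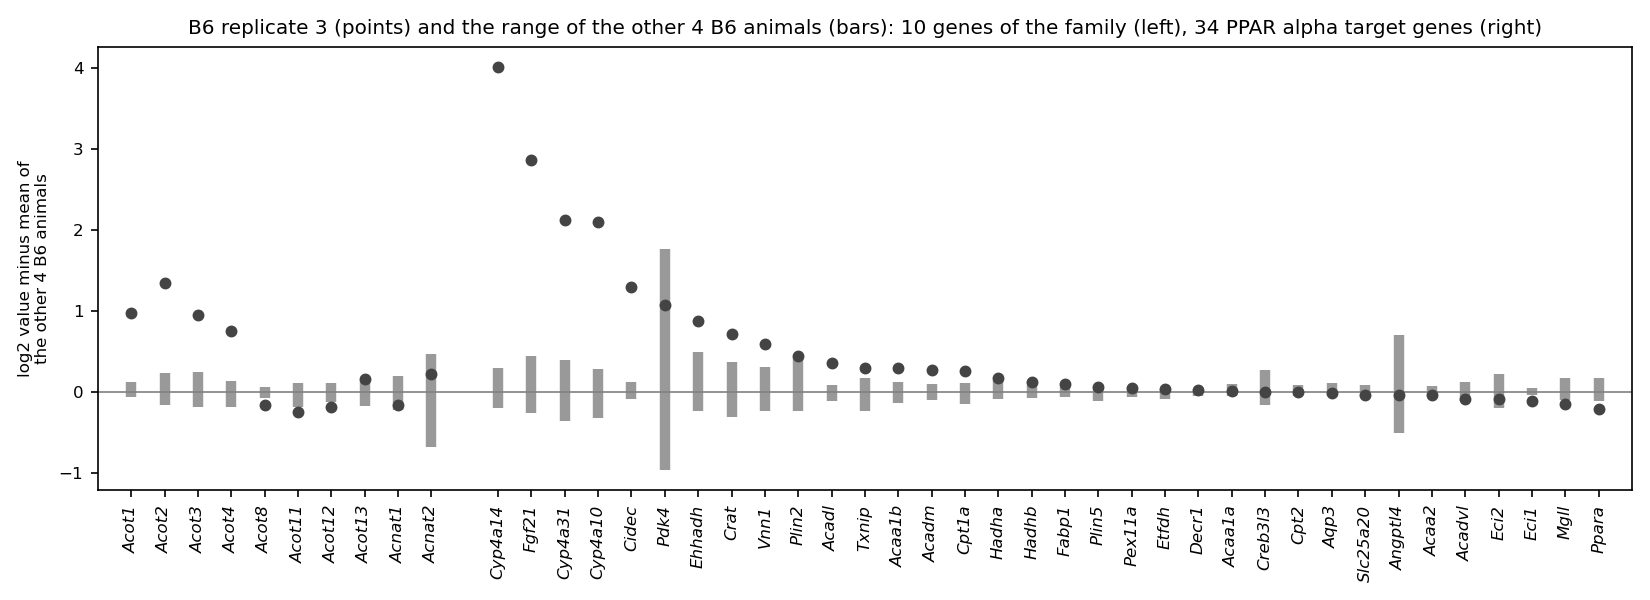
Log2 value of B6 replicate 3 minus the mean of the other 4 B6 animals (points), with the range of those 4 animals around their mean (bars), for the 10 genes of the family on the left and 34 PPAR alpha target genes on the right. The points for Acot1 to Acot4 stand 0.75 to 1.35 above 0 and outside the bars, and Cyp4a14 stands highest on the right at 4.01.

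Leaving out B6 replicate 3 widened the differences between 129P2 and B6 for Acot1 and Acot2. That animal was singled out for its high values of these genes, so leaving it out had to lower their B6 means. The calls gained in this way are therefore no support for a strain difference, and Acot1 was dim on 3 of the 5 B6 arrays. With all animals the differences for 129P2 minus B6 were 0.32 ± 0.15 for Acot1 (limma adjusted p = 0.234) and 0.32 ± 0.22 for Acot2 (limma adjusted p = 0.467). Without that animal they were 0.52 for Acot1 (limma adjusted p = 0.00127) and 0.59 for Acot2 (limma adjusted p = 0.026). The members called without it were 2 for NZO minus B6 (Acnat2 at 2.07 and Acnat1 at 0.46, Acnat1 with a limma adjusted p of 0.0472), 0 for C3H minus B6, and 3 for 129P2 minus B6, with Acot11 at 0.42. Over all genes the calls without that animal numbered 1098, 818 and 722 in these comparisons, against 1457, 1142 and 879 with it. The animal also carried most of the covariation in the cluster. The correlation of deviations from strain means was 0.70 between Acot1 and Acot2 over 20 arrays and 0.13 over 19 without it; for Acot1 with Acot3 it was 0.67 and 0.16, and for Acot2 with Acot4 0.67 and 0.40. For Acnat1 with Acnat2 it was 0.69 and 0.72. Acot1 and Acot2 are near-identical copies over much of their coding sequence, so how far their probe sets read each other's RNA is uncertain and was not tested.

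Acot11, a thioesterase with a lipid-binding START domain that is also called Them1, was higher in 129P2 than in each other strain. Its log2 values were 7.24, 7.25, 7.13, 7.34 and 7.24 in NZO, 7.21, 7.03, 7.25, 7.15 and 7.26 in C3H, 7.72, 7.85, 7.95, 7.99 and 7.75 in 129P2, and 7.43, 7.54, 7.18, 7.25 and 7.51 in B6. All 129P2 animals lay above all other animals, and the other strains overlapped. The difference was -0.61 ± 0.08 for NZO minus 129P2 (limma adjusted p = 6.78e-06) and -0.68 ± 0.08 for C3H minus 129P2 (limma adjusted p = 2.23e-06). For 129P2 minus B6 it was 0.47 ± 0.08, a fold of 1.39 with a 95% interval of 1.24 to 1.55 (limma adjusted p = 2.26e-04). Of all tested genes, 0.514% were higher in 129P2 than in each other strain, and Acot11 was the only member among them. The C3H, NZO and B6 means were close, and C3H minus B6 was -0.20 ± 0.08 (limma adjusted p = 0.0997).

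Acot8, Acot12 and Acot13 passed no comparison. Acot8, a peroxisomal thioesterase of broad chain-length range, had log2 means of 8.27 ± 0.14 in NZO, 8.27 ± 0.12 in C3H, 8.17 ± 0.18 in 129P2 and 8.07 ± 0.09 in B6 (SD, n = 5 each). Acot12, a cytosolic enzyme that hydrolyses acetyl-CoA, had 10.55 ± 0.16 in NZO, 10.54 ± 0.25 in C3H, 10.71 ± 0.21 in 129P2 and 10.62 ± 0.13 in B6. Acot13, also called Them2, which associates with mitochondria and binds the phosphatidylcholine transfer protein Pctp, had 9.45 ± 0.14 in NZO, 9.55 ± 0.29 in C3H, 9.66 ± 0.11 in 129P2 and 9.67 ± 0.15 in B6. The strains overlapped for each gene, and the 95% intervals of all their differences lay between -0.45 and 0.37. These 3 genes followed the spread of the arrays (limma adjusted p = 0.0289 for Acot8, adjusted p = 0.0186 for Acot12 and adjusted p = 0.00985 for Acot13), as 49% of tested genes did, while the other 6 tested members did not pass that test. When the spread of each array was a covariate, Acot8 was called higher in NZO (0.28, limma adjusted p = 0.0258) and in C3H (0.30, limma adjusted p = 0.0312) than in B6.

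Over the family, 2 of 9 tested members were called for NZO minus B6, against 10.3% of all tested genes, and both were the Acnat genes, higher in NZO, a direction that 3.63% of genes had. For NZO minus C3H 1 member was called (6.60% of all genes), Acnat2, higher in NZO (3.51%). For NZO minus 129P2 4 were called (8.90%): Acnat2 was higher (4.29% of genes), and Acot1, Acot2 and Acot11 were lower in NZO (4.61%). For C3H minus B6 1 was called (8.05%), Acot4, lower in C3H (5.34%), and for 129P2 minus B6 1 was called (6.19%), Acot11, higher in 129P2 (2.11%). For C3H minus 129P2 4 were called (5.03%), with Acot1, Acot2, Acot4 and Acot11 all lower in C3H (2.78%). The values of the strains did not overlap for 2 of 9 members for NZO minus B6 (9.32% of tested genes), 1 for NZO minus C3H (6.72%), 3 for NZO minus 129P2 (7.95%), 0 for C3H minus B6 (8.81%), 1 for 129P2 minus B6 (7.41%) and 4 for C3H minus 129P2 (5.40%). The moderated F-test over the 4 strains passed for 6 of the 9, against 17.0% of all tested genes, with Acnat1 nearest to the threshold (adjusted p = 0.0493 by limma). Acnat1 lost that call on leaving out any of 15 of the 20 animals singly, B6 replicate 3 among them, and in 4 of 8 other settings (limma adjusted p up to 0.122). As Acot1 passed the filter through its bright strains, these counts include a gene that had to differ. The median difference of the 9 was -0.14 for NZO minus B6, 0.01 for NZO minus C3H, -0.20 for NZO minus 129P2, -0.12 for C3H minus B6, 0.26 for 129P2 minus B6 and -0.17 for C3H minus 129P2, and over all tested genes each median was 0.00 or 0.01. Comparisons that share a strain share its animals.

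**Figure D3:**
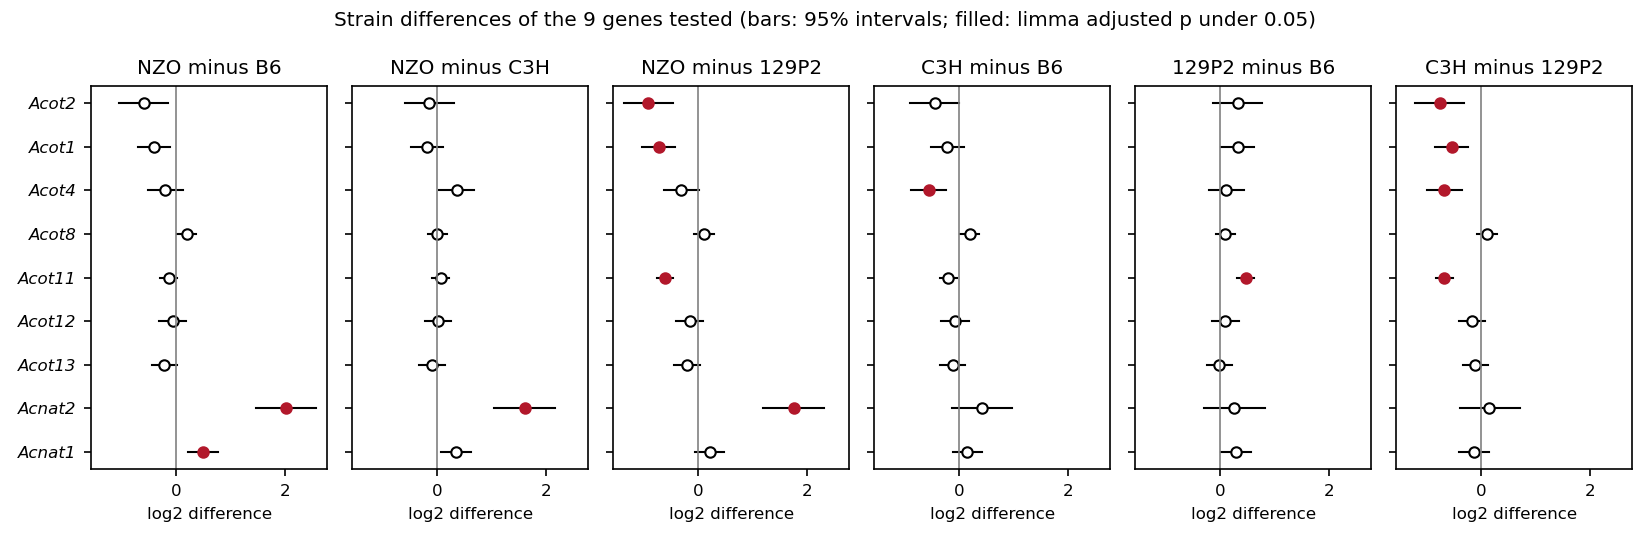
Log2 difference of the 9 tested genes in each of the 6 comparisons (first strain minus second), with 95% intervals and filled points for a limma adjusted p under 0.05. Acnat2 is filled and positive in each NZO comparison, at 1.61 to 2.02, and the filled points of Acot1, Acot2, Acot4 and Acot11 for C3H minus 129P2 are all negative.

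No neighbour of these genes passed the test. The 3 nearest genes with a test were taken on each side of the Acnat pair, of the type I cluster and of Acot11. Of these 18 neighbours, 0 were called in the 108 gene-by-comparison values by limma, 12 had an unadjusted p under 0.05, and their differences lay between -0.32 and 0.25. Without B6 replicate 3, 0 of the 54 values against B6 were called. Baat, the bile acid conjugating enzyme that follows Acnat1, had means of 11.09 in NZO and 11.17 in B6 (difference -0.08, limma adjusted p = 0.709). Within the type I cluster Acot6 was not called in any comparison, with -0.09 to 0.24 for its differences, and Acot5 was dim on every array. Acot6 was above the percentile on only 5 arrays and passed the filter mainly through NZO. With B6 and C3H dim throughout, its small differences say little about its level. Genes differ in how precisely they are measured, and the difference between a member and its neighbours was not tested.

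**Figure D4:**
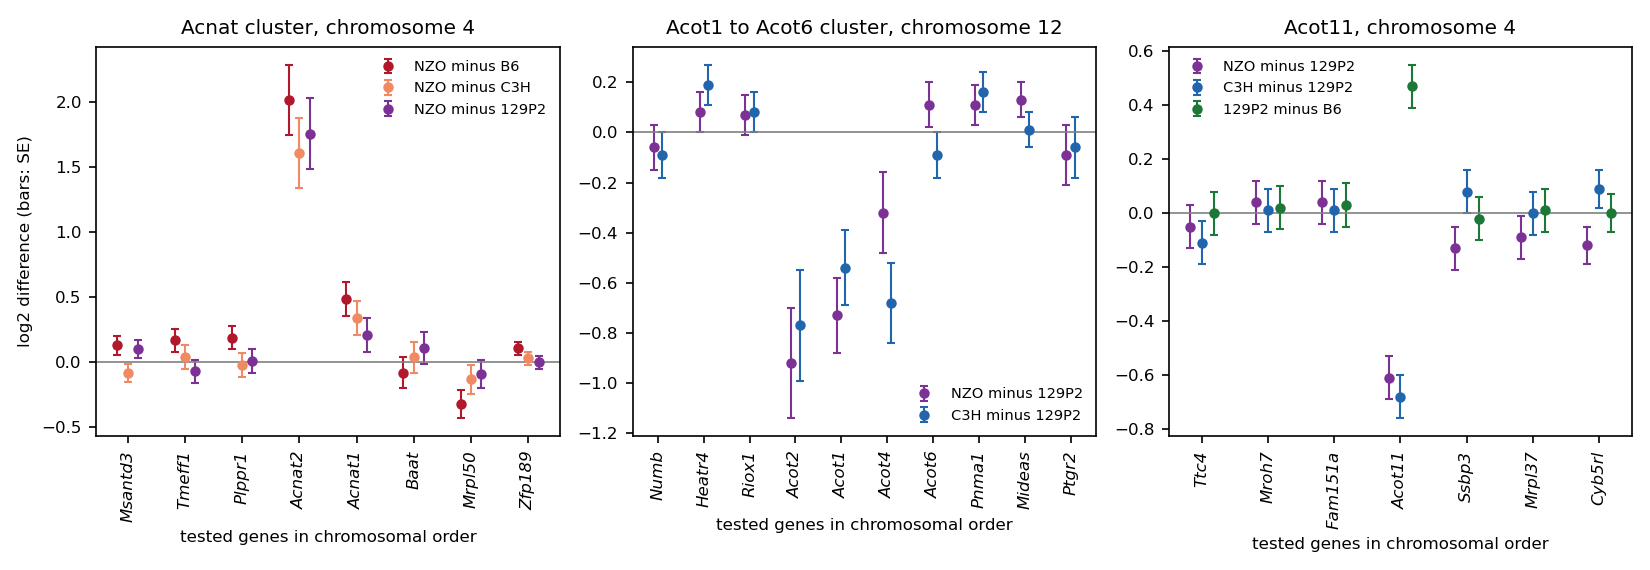
Log2 difference (points) with SE (bars) of the tested genes in chromosomal order around the Acnat pair, the type I thioesterase cluster and Acot11. The comparisons drawn each called a gene inside, and C3H minus B6, which called Acot4 (-0.56), is not drawn for the type I cluster. Acnat2 stands at 1.61 to 2.02 for NZO minus the other strains, while the 18 flanking genes lie between -0.32 and 0.25 over all 6 comparisons.

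Other genes that handle acyl-CoA were counted by list. These counts are to be read beside the shares of all tested genes called in either direction. They were 10.3% for NZO minus B6, 6.60% for NZO minus C3H and 8.90% for NZO minus 129P2. For C3H minus B6 the share was 8.05%, for 129P2 minus B6 6.19% and for C3H minus 129P2 5.03%. Of 10 other tested thioesterases and N-acyltransferases, 2 were called in any comparison. Hibch, which hydrolyses 3-hydroxyisobutyryl-CoA in valine breakdown, was lower in NZO than in B6 (-0.47 ± 0.13, limma adjusted p = 0.0207) and in 129P2 (-0.54 ± 0.13, limma adjusted p = 0.00735). Them5, a mitochondrial thioesterase, was above the percentile on 8 arrays, 5 of them C3H, and so passed the filter through its bright strain. Its calls against C3H are therefore description and no support for a strain difference. As B6 was dim throughout, only a bound holds there, and Them5 was at least 1.37-fold higher in C3H than in B6 (0.46 log2 units). The bound was not tested, and the call rests on the fitted difference (limma adjusted p = 1.94e-04). Them5 was lower in NZO, dim on 4 of 5 arrays, than in C3H (fitted difference -0.54 ± 0.13, limma adjusted p = 0.00883). Acot7 and Acot9 were not called, with -0.22 and -0.39 for NZO minus B6.

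All tested genes were called, in either direction, at 6.19% for 129P2 minus B6 and 5.03% for C3H minus 129P2. Of 34 tested PPAR alpha targets, 3 were higher and 1 lower for 129P2 minus B6, and 0 higher and 4 lower for C3H minus 129P2. The 3 were omega-hydroxylases: Cyp4a14 averaged 9.90 in 129P2 and 7.39 in B6 (2.51 ± 0.62, limma adjusted p = 0.0131), Cyp4a10 differed by 1.57 and Cyp4a31 by 1.73. Without B6 replicate 3 the count was again 3 higher and 1 lower for 129P2 minus B6, with 3.31 for Cyp4a14 (limma adjusted p = 1.38e-05). For C3H minus 129P2 the lower genes were Cyp4a10 (-1.82), Cyp4a14, Cyp4a31 (-1.93) and the pantetheinase Vnn1 (-1.99). Cyp4a14 was dim on all C3H arrays, so only a bound holds, at least 9.61-fold lower in C3H than in 129P2 (3.26 log2 units). The bound was not tested, and the call rests on the fitted difference of -3.57 ± 0.62 (limma adjusted p = 5.60e-04). For NZO minus B6, 0 targets were higher and 4 lower (Ehhadh, Acaa1a, Acaa1b and Fabp1), where 10.3% of all tested genes were called. Without B6 replicate 3, 1 was higher (Cyp4a31) and 2 lower (Acaa1b and Fabp1). For NZO minus C3H 1 was higher and 2 lower, for NZO minus 129P2 0 and 4, and for C3H minus B6 0 and 1 (Vnn1), or 1 (Fgf21) and 1 (Vnn1) without B6 replicate 3. The list medians lay between -0.15 and 0.03 over the 6 comparisons. In 129P2 the members Acot1, Acot2, Acot4, Acot11 and Acot12, and Acot3 though dim there, had their highest strain means, as did the Cyp4a genes. Of these members only Acot11 was called for 129P2 minus B6. Acot4 differed by 0.11 there (limma adjusted p = 0.75), Acot12 was called in no comparison, and Acot3 was not tested. Acot8, Acot13, Acnat1 and Acnat2 had their highest means in other strains. Other genes of the list went either way. Acadm and Acaa1a had their highest mean in 129P2, while Plin2, Cpt1a and Ppara had their lowest. The list as a whole had a median of 0.03 for 129P2 minus B6.

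Of 28 tested genes of peroxisomal fatty acid and bile acid oxidation, 2 were higher and 7 lower for NZO minus B6, 2 and 3 for NZO minus C3H, and 4 and 4 for NZO minus 129P2. The shares of all tested genes called in these comparisons were 10.3%, 6.60% and 8.90%. Hacl1, the lyase of alpha oxidation, was higher in NZO, by 0.69 over B6, 0.70 over C3H and 0.76 over 129P2. Nudt19, the peroxisomal coenzyme A hydrolase in the title of the series, was lower in NZO, with a difference of -1.27 from B6, -1.21 from C3H and -0.91 from 129P2 (largest limma adjusted p = 4.62e-06). The counts were 1 higher and 3 lower for C3H minus B6, 1 and 3 for 129P2 minus B6, and 4 and 1 for C3H minus 129P2. Without B6 replicate 3, they were 2 and 4 for NZO minus B6, 0 and 2 for C3H minus B6, and 0 and 2 for 129P2 minus B6. Acyl-CoA binding genes and the Acot13 partner Pctp had 0 of 9 higher and 5 lower for NZO minus B6 (Dbi, Acbd4, Pctp, Fabp1 and Fabp2), and 0 and 4 without that animal, when Pctp was not called (-0.55, limma adjusted p = 0.0987). Pctp averaged 8.77 in NZO, 8.40 in C3H, 8.64 in 129P2 and 9.39 in B6, and with all animals each difference from B6 was called (-0.62 for NZO, -0.99 for C3H and -0.75 for 129P2). Without B6 replicate 3 the calls for C3H (-0.92, limma adjusted p = 0.00547) and 129P2 (-0.68, limma adjusted p = 0.0496) held. Acyl-CoA synthetases, which make the substrates of the thioesterases, had 3 higher and 2 lower of 18 for NZO minus B6 (2 and 1 without B6 replicate 3), 3 and 0 for NZO minus C3H, and 0 and 0 for NZO minus 129P2. Among the higher genes, Slc27a6 was above the percentile on only 5 arrays and passed the filter mainly through NZO. B6 and C3H were dim throughout for Slc27a6, so only bounds hold, at least 1.1-fold over B6 and 1.06-fold over C3H. Acsm2, counted against B6, was above the percentile on 7 arrays, with B6 dim throughout and NZO dim on 3 of 5 arrays. Its bound over B6 was 1.18-fold. Acss3, a mitochondrial short-chain synthetase, was higher in NZO than in B6 (0.85) and C3H (1.13).

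For each member that passed the F-test, the tested genes with the highest Pearson correlation over the 20 arrays were listed as a description. The arrays share normalization and fall into strains, so a gene with the same strain order scores high. For Acnat2 these were Lbp (0.89), Slc34a2 (0.88) and Serpina3n (0.87). Lbp, the lipopolysaccharide-binding protein, and Serpina3n, a protease inhibitor, are acute phase proteins secreted by liver. Lbp averaged 11.89 in NZO, 10.97 in C3H, 11.06 in 129P2 and 10.75 in B6, and its deviations from strain means correlated with those of Acnat2 at 0.65, against 0.31 for Slc34a2 and 0.43 for Serpina3n. For Acnat1 they were Pid1 (0.82), Prr16 (0.78) and Itih4 (0.78), the last also an acute phase protein. For Acot11 they were Ccm2l (0.90), Rfx4 (0.89) and Lrrc8b (0.88), but Ccm2l deviated from its strain means with a correlation of 0.06 only. For Acot2 they were Ephx1 (0.85), Acot1 (0.85) and Foxj2 (0.83), and for Acot1 they were Acot2 (0.85), Stk39 (0.83) and Foxj2 (0.81). Ephx1, the microsomal epoxide hydrolase, had deviations from strain means that correlated with those of Acot2 at 0.86 over 20 arrays and 0.76 over 19 without B6 replicate 3, and for Foxj2 with Acot2 these were 0.67 and 0.31. With Acot1 they were 0.67 and 0.21 for Stk39, and 0.57 and -0.04 for Foxj2. For Acot4 they were Sppl3 (0.84), Gaa (0.82) and Tbc1d13 (0.82).

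Whole liver holds several cell types, and fewer cells of a type cannot be told apart from less RNA per cell. Over all tested genes, 10.3% were called for NZO minus B6, 6.60% for NZO minus C3H and 8.90% for NZO minus 129P2. Of 8 endothelial markers, 5 were lower in NZO than in B6 (4 without B6 replicate 3), 4 than in C3H and 4 than in 129P2, and 0 were higher. Stab1 was not called in these comparisons, and Lyve1 was not called either, with a difference of 0.31 for NZO minus 129P2. The summed linear signal of the 8 was 2550 to 3454 in NZO, 3398 to 4506 in C3H, 3474 to 4589 in 129P2 and 3509 to 4914 in B6. Of 8 stellate cell markers, 4 were lower in NZO than in B6 (2 without B6 replicate 3, Reln and Col3a1), 2 than in C3H and 3 than in 129P2, while Col1a1, Acta2, Des and Pdgfrb were not called in these comparisons. Their sums were 3017 to 4131 in NZO, 4488 to 4921 in C3H, 4408 to 5855 in 129P2 and 3816 to 6968 in B6. Hepatocyte markers summed to 122933 to 136003 in NZO, 128970 to 134038 in C3H, 121991 to 134623 in 129P2 and 128594 to 135554 in B6, and those ranges overlapped. Kupffer cell markers had 2 of 9 lower in NZO than in B6 (1 without B6 replicate 3), 1 than in 129P2 and 0 than in C3H, with sums of 3524 to 6087 in NZO, 3617 to 4547 in C3H, 3953 to 8091 in 129P2 and 4539 to 6633 in B6. Of 8 neutrophil markers S100a9 was higher in NZO than in B6 (0.39), and S100a8, Ly6g, Cxcr2 and Mmp8 were dim on every array. The lymphocyte markers Cd3g, Cd79a, Ms4a1 and Gzma, the adipocyte markers Adipoq and Lep, and the bile duct marker Cftr were also dim on every array. The part of these markers in the differences of Acnat2 and the thioesterases was not tested.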

How the data were processed

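RNA of 150 ng per liver, with an integrity number above 8, was amplified, per the labels' protocols, and each animal had its own whole-transcript array. The deposited log2 values were made by the authors with Affymetrix Expression Console by RMA, per the submitters' processing notes; versions are not given in the sources used here, and the values were used as deposited. Arrays have no read depth, and their number limits the precision. The labels give no replicate numbers, so animals were numbered within a strain in series order.

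Of 35556 probe sets, 21789 with 1 gene symbol in the platform annotation gave 19938 genes (the probe set with the highest mean). Genes with at least 5 arrays above their own 40th percentile (14190) were fitted with limma 3.58.1 (R 4.3.3, with data.table in version 1.17.8), with 1 mean per strain, empirical Bayes with a trend on intensity, and p-values adjusted by Benjamini-Hochberg at 0.05 over all tested genes. The percentile also served as the floor of bounds: a strain dim on all arrays gave the brighter strain's mean minus the mean percentile. Array spread was tested as the slope on each array's interquartile range in a fit with strain.

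On simulated data with 14190 genes, 89.6% of genes changed by 0.5 log2 units and 100% of those changed by 2 were called for NZO minus B6, with 7 false calls among 199. The simulated noise was normal and independent between genes and arrays, and only NZO was changed. No effect of array spread was simulated, although 49% of tested genes followed it. These rates check the code and need not hold for the members. Plots used Python 3.11.15 and matplotlib 3.10.9.

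Named genes were all members, list genes called in a comparison, the 3 tested genes on each side of the clusters and of Acot11, and for members past the F-test the 3 most correlated tested genes, without predicted genes, clones and small RNAs; Baat, Acot5, Acot6, Acot7 and Acot9 were also named, for their kinship, and genes of B6 replicate 3 for their size. The members and lists were chosen with earlier results of these data known. Settings were changed singly: no filter or a 60th percentile filter, equal array medians, quantile normalization, no trend, array spread as a covariate, only the compared strains, probe sets averaged by gene, and each animal left out. Raising dim values to the percentile was added after the data were seen.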

Additional observations from a re-analysis of the deposited data

Results flagged for a closer look

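Of 40 groups of 5 animals examined (10 genes in 4 strains), 3 held a value far from the other 4 by Dixon's criterion, and chance alone gives about 1 in 20 groups. Acot1 read 7.54 in B6 replicate 3, and the nearest B6 animal read 6.69. Acot2 read 9.79 in the same animal, and the nearest B6 animal read 8.68. Acot13 read 10.05 in C3H replicate 2, and the nearest C3H animal read 9.51.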

How the results depend on the processing

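Of 1560 recomputed values for the 54 differences of the 9 tested members, 1503 kept their direction and side of the threshold, 25 lost a call, 10 gained one and 22 changed sign, none of the 22 being called before or after. The NZO calls of Acnat2 and the 129P2 calls of Acot11 held in each setting run. The changes of sign were in Acot8, Acot12, Acot13 and Acnat2. With array spread as a covariate, Acot8 (NZO minus C3H) read -0.02, Acot12 read 0.07 (NZO minus B6), -0.02 (NZO minus C3H) and 0.09 (C3H minus B6), and Acot13 read 0.04 (C3H minus B6) and 0.14 (129P2 minus B6). With quantile normalization, Acot8 (NZO minus C3H) read -0.01 and Acot13 (129P2 minus B6) 0.05. Over the animals left out in turn, Acot8 (NZO minus C3H) ran from -0.04 to 0.05, Acot12 from -0.09 to 0.09 (NZO minus C3H) and -0.15 to 0.02 (C3H minus B6), Acot13 from -0.15 to 0.03 (NZO minus C3H) and -0.07 to 0.03 (129P2 minus B6), and Acnat2 (C3H minus 129P2) from 0.00 to 0.36. For C3H minus B6 the members called numbered 2 with equal array medians, where Acot11 was added, and 0 with only the compared strains in the fit. Over all genes these 2 settings gave 1105 and 988 calls. With equal array medians the C3H minus 129P2 call of Acot2 was lost (limma adjusted p = 0.0578), and Acot1 was called for NZO minus B6 with quantile normalization (-0.45, limma adjusted p = 0.0432). Leaving out each animal in turn gave 1 to 3 called members for NZO minus B6, 1 to 2 for NZO minus C3H, 4 for NZO minus 129P2, 0 to 1 for C3H minus B6, 1 to 3 for 129P2 minus B6, 2 to 4 for C3H minus 129P2 and 5 to 6 for the F-test. The calls over all genes, in the same order, were 972 to 2175, 735 to 1029, 1011 to 1366 and 729 to 1472. They were 646 to 981 for 129P2 minus B6, 538 to 788 for C3H minus 129P2 and 1971 to 2817 for the F-test. The gains for 129P2 minus B6 came without B6 replicate 3 (Acot1 and Acot2) and without 129P2 replicate 2 (Acnat1, 0.42, limma adjusted p = 0.0209), and the gain for NZO minus C3H came without that 129P2 animal too (Acnat1, 0.34, limma adjusted p = 0.0431). Acot2 was called for NZO minus B6 without NZO replicate 4 (-0.72, limma adjusted p = 0.0458). Over all genes, the calls numbered 1928 with array spread as a covariate and 1263 without it for NZO minus 129P2, 1125 and 714 for C3H minus 129P2, and, for C3H minus B6, 729 without B6 replicate 4 and 1142 with it. The cause was not tested. No paired analysis was possible because the labels carry no replicate numbers. Signal over background limits Acot1 and Acot3, which were dim on most arrays.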
